A study of Aspergillus niger with 11 samples.

Results

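The genes described are 8 enzymes of Aspergillus niger that break down cellulose and hemicellulose, the main polysaccharides of plant cell walls. They were taken by locus as a fixed set of 8 among the 10445 genes of the deposited tables, and all 8 were found there. They are the endoglucanase genes eglA (An14g02760) and eglB (An07g08950), the cellobiohydrolase gene cbhA (An07g09330) and the β-glucosidase gene bgl1 (An18g03570). The other members are the endoxylanase gene xynB (An01g00780), the arabinofuranosidase genes abfA (An01g00330) and abfB (An15g02300), and the arabinoxylan arabinofuranohydrolase gene axhA (An03g00960). The symbols are those of the RefSeq gene table of assembly ASM285v2, where each of the 8 loci carries the symbol given here.

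The transcript levels come from 11 RNA-seq libraries of strain DS03043 of this filamentous fungus. It was cultivated in fed-batch mode in a 5 L fermenter at 34 °C and pH 4.5, stirred at 375 rpm. The labels of all groups describe the cultivation as oxygen-limited. The growth-phase labels name limitation for the early, middle and late phases and not for the exponential phase. The labels give 4 growth phases, the exponential phase (n = 3), a transitional or early oxygen-limited stage (n = 3), a middle limited phase (n = 3) and a late limited phase (n = 2). Sampling times of 18, 24, 42 and 66 h are listed for the series and are assigned here to the phases by their chronology. No separate culture run without oxygen limitation was analysed here, so limitation, culture age and growth phase cannot be told apart. The labels do not say that replicates were separate cultures. The p-values therefore reflect the variation among these libraries, which could be technical alone.

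Fungi digest cellulose outside the cell with a set of secreted enzymes. Endoglucanases cut within the glucose chain, cellobiohydrolases release the disaccharide cellobiose from chain ends, and β-glucosidases split cellobiose to glucose. Endoxylanases cut the xylan backbone of hemicellulose, and arabinofuranosidases remove its arabinose side groups. In Aspergillus niger, xylanase and cellulase genes are known to be switched on by the regulator XlnR in the presence of xylose, arabinofuranosidase genes by the regulator AraR in the presence of arabinose, and both kinds to be held down by the carbon catabolite repressor CreA when glucose is at hand.

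Values are FPKM, fragment numbers divided by transcript length and by the mapped total of the library, computed by the authors with 1 value per gene and library, so that levels of different genes can be set side by side. The depth was low. In most genes the values were whole multiples of the FPKM that 1 read is worth, and the reads recovered from these steps numbered 15201 to 22525 per library over 7636 genes. This is not the full depth, because abundant genes without a recovered step are not in it. Taking the shallowest library as 1, relative depth was 1.08 to 1.21 in the exponential phase, 1.00 to 1.11 in the early, 1.38 to 1.43 in the middle and 1.50 to 1.59 in the late limited phase. A library listed 51.69% to 57.05% of all genes above 0. A gene listed at 0 is therefore one not detected at this depth and need not be silent.

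The set split into 1 transcript present in every library and 7 of low mean level. Of these 7, bgl1 was above 0 in 8 libraries, more than for 60.01% of all genes. The others were above 0 in at most 3 libraries, as were 35.17% of all genes. eglB was above 0 in 11 of 11 libraries with a mean of 126 FPKM over all of them, higher than the mean of 89.1% of all genes. The mean of every other member was lower than 5 FPKM, from 2.12 for abfA to 4.23 for bgl1, while the median over all genes was 9.75. These 7 means ranked above 18.59% to 31.76% of all genes. Ranks at such levels depend also on the worth of 1 read, which was 4.09 to 6.5 FPKM for bgl1 and 15.38 to 24.44 FPKM for eglA. The mean of eglB was 29.8 times the mean of bgl1, the next highest member. eglB made up 63.07% to 100% of the summed FPKM of the 8 genes in a library.

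**Figure D1:**
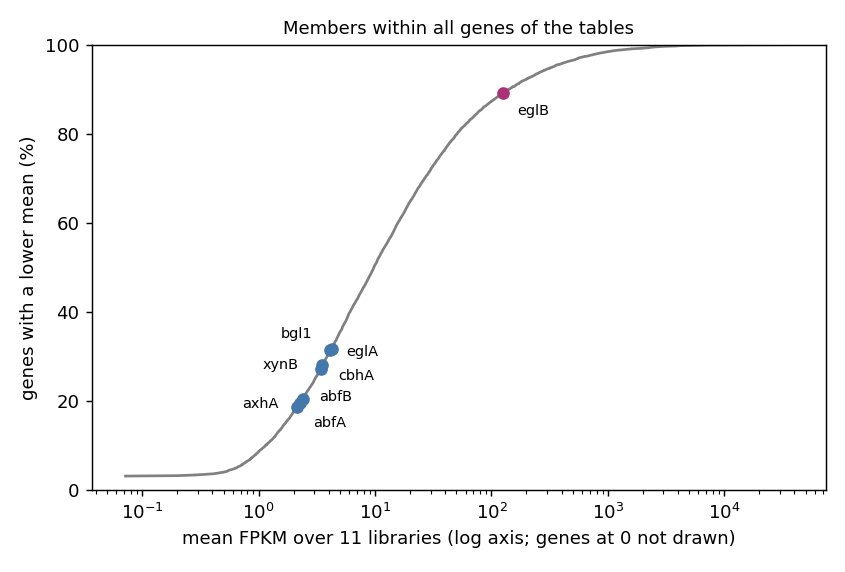
Mean FPKM over 11 libraries (x axis, log scale) against the percentage of all genes with a lower mean (y axis). The grey line is all genes and the points are the 8 members. eglB, at 126 FPKM, lies at 89.1%, and the other 7 members lie between 18.59% and 31.76%.

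Among the cellulose enzymes, eglB stood at 100.1, 61.5 and 112.65 FPKM in the exponential libraries and at 124.64, 101.72 and 34.66 FPKM in the early limited libraries. It stood at 200.53, 133.55 and 150.18 FPKM in the middle limited libraries and at 185.36 and 184.2 FPKM in the late limited libraries. The middle limited libraries all lay above the exponential ones, the late limited libraries above the exponential ones and the middle limited libraries above the early limited ones, as was also so for 9.71%, 14.7% and 8.21% of the genes tested, in that order. The lowest value was that of early limited replicate 3. The reads behind these values were 7, 4 and 7 in the exponential, 8, 6 and 2 in the early, 16, 11 and 12 in the middle and 17 and 16 in the late limited libraries, each within 0.015 of a whole number. In order of level, the phase means were 185 ± 0.82 FPKM in the late limited phase (SD, n = 2), 161 ± 34.9 in the middle limited phase (n = 3), 91.4 ± 26.7 in the exponential phase (n = 3) and 87.0 ± 46.8 in the early limited phase (n = 3). The late and middle means differed by 23.4 FPKM and those of the exponential and early phases by less than the SD of either, so neither pair of neighbours was separated beyond the spread of its libraries. The SD of the 2 late libraries does not cover counting error, as their 33 reads correspond to 127 to 260 FPKM (95% exact Poisson interval, counting error only). The corresponding intervals were 115 to 220 FPKM from 39 reads in the middle, 54.1 to 144 from 18 reads in the exponential and 50.5 to 144 from 16 reads in the early limited phase.

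**Figure D2:**
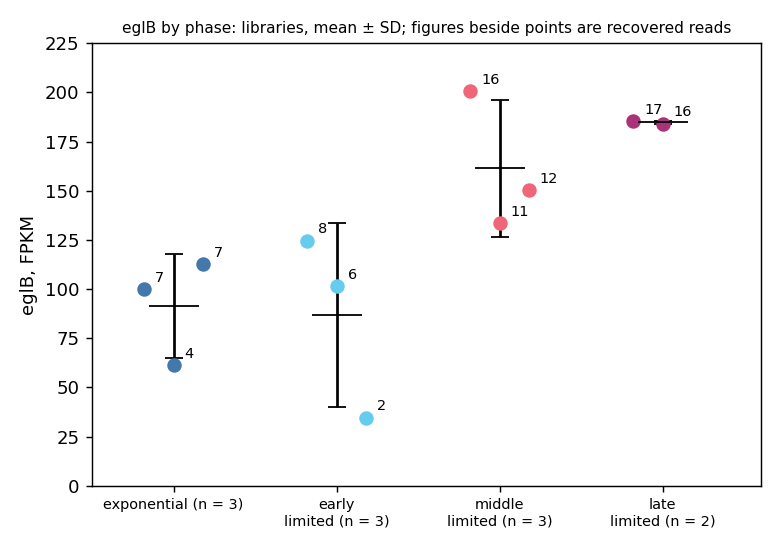
FPKM of eglB (y axis, linear) in each library of the 4 phases (x axis). Points are libraries, black bars the mean ± SD, and the figure beside each point is its number of recovered reads. The libraries lie at 61.5 to 112.65 FPKM in the exponential, 34.66 to 124.64 in the early, 133.55 to 200.53 in the middle and 184.2 to 185.36 in the late limited phase.

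The difference of eglB between the phases did not pass the test across all genes. The limma F test over the 4 phases gave a p of 0.0815 and a Benjamini-Hochberg adjusted p of 0.311, where 8.03% of the 8693 genes tested passed. An exact permutation of the F statistic over 92400 arrangements of the 11 libraries, added after the values were seen, gave p = 0.104. For middle limited against exponential libraries, the fitted ratio was 1.79-fold with a 95% interval of 0.86 to 3.71 (0.84 in log2, SE 0.48, Benjamini-Hochberg adjusted p = 0.392 by limma). For late limited against exponential libraries it was 2.08-fold with an interval of 0.916 to 4.70 (log2 fold change 1.05, SE 0.53, adjusted p = 0.346 by limma). For middle against early limited libraries it was 2.07-fold with an interval of 0.998 to 4.31 (adjusted p = 0.295 by limma, 0.0506 before adjustment). For early limited against exponential libraries the ratio was 0.862-fold (0.415 to 1.79), and late against middle limited libraries it was 1.16-fold (0.513 to 2.63). These intervals leave room for changes of more than 2-fold in each of the 5 comparisons, so the level of eglB is not shown to be constant. Without early limited replicate 3, the log2 fold change of middle against early limited libraries was 0.49 in place of 1.05, and that of early limited against exponential libraries turned from -0.21 to 0.34. The summed FPKM of a library moved with the phases, from 1054732 to 1100826 in the exponential and early libraries to 968822 to 983397 in the middle and late libraries. With all libraries rescaled to the same sum, the log2 fold changes of the 3 comparisons above were 0.96, 1.19 and 1.20, and none was called. In bulk samples, more cells with a transcript and more RNA per cell cannot be told apart.

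The other cellulose enzymes were near the detection limit. bgl1 was the most regularly detected of them, above 0 in 8 of 11 libraries. Its values were 5.36, 0 and 6.04 FPKM in the exponential, 5.85, 6.37 and 0 in the early limited, 4.69, 4.54 and 9.37 in the middle limited and 0 and 4.32 in the late limited libraries. Each value above 0 corresponded to 1 read, except for 2 reads in middle limited replicate 3. The values of 1 read differ from each other only by the depth of their libraries, so they show no change in this gene. A level of 3 reads, the upper limit that a count of 0 allows, would be 12.3 to 19.5 FPKM for bgl1, depending on the library.

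eglA was listed at 21.71 FPKM in exponential replicate 2, at 23.85 FPKM in early limited replicate 2 and at 0 in the other 9 libraries. Both values equal 1 read, and 3 reads would be 46.1 to 73.3 FPKM. It was at 0 in all 5 middle and late limited libraries, where eglB was highest. cbhA was listed at 12.28 FPKM in early limited replicate 2, 18.11 FPKM in middle limited replicate 3 and 8.33 FPKM in late limited replicate 2, which equal 1, 2 and 1 reads. It was at 0 in the other 8 libraries, all exponential ones included, and 3 reads would be 23.7 to 37.6 FPKM. For both genes the limit of a single library is 3 reads, which by construction is higher than the 1 or 2 reads listed. A 0 in a library is thus not read as absence. No limit was computed for the libraries of a phase together, so no absence in a phase is read from these zeros either.

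**Figure D3:**
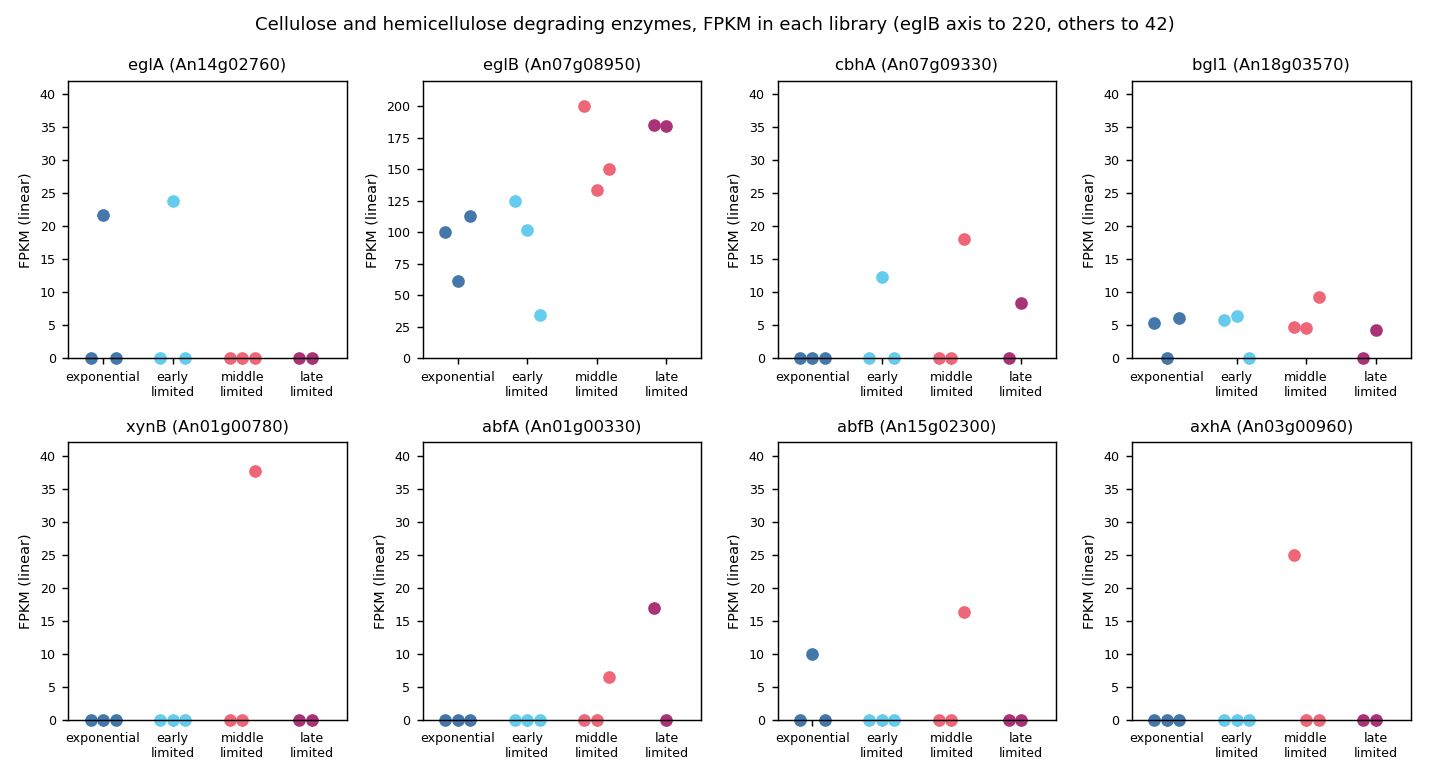
FPKM (y axis, linear) of each member in each library, by phase (x axis), with 1 point per library and replicates 1 to 3 from left to right. The axis ends at 220 for eglB and at 42 for the other genes. eglB is above 0 in all 11 libraries, bgl1 in 8, cbhA in 3, eglA, abfA and abfB in 2, and xynB and axhA in 1.

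The hemicellulose enzymes were detected in 1 or 2 libraries each. xynB was listed at 37.63 FPKM in middle limited replicate 3 and at 0 in the other 10 libraries. axhA was listed at 24.99 FPKM in middle limited replicate 1 and at 0 in the other 10. Both were seen in a single library, so the worth of 1 read could not be derived for them and no limit is given. Of all genes, 13.56% were above 0 in exactly 1 library, and 173 of these genes had that value in middle limited replicate 1 and 128 in middle limited replicate 3, against 100 to 154 in the other libraries. abfA was listed at 6.46 FPKM in middle limited replicate 3 and at 16.89 FPKM in late limited replicate 1, equal to 1 and 3 reads, and was at 0 in all 6 exponential and early libraries. abfB was listed at 10.03 FPKM in exponential replicate 2 and at 16.35 FPKM in middle limited replicate 3, equal to 1 and 2 reads. A count of 3 reads would be 16.9 to 26.8 FPKM for abfA and 21.4 to 34.0 FPKM for abfB.

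The weak members were detected most often in middle limited replicate 3. This library listed 6 of the 8 members above 0, namely eglB, cbhA, bgl1, xynB, abfA and abfB, against 1 to 4 members in the other libraries. It held 7 of the 22 reads of the 5 weak members whose read worth is known, and the other libraries held 0 to 3 each. Of all genes, 54.92% were above 0 in this library, against 51.69% to 57.05% over all libraries. The library was singled out after the values were seen, and the reason for its count of members was not tested. Of the values of the 7 weak members, 8 of 21 were above 0 in the middle limited phase, against 4 of 21 in the exponential, 4 of 21 in the early and 3 of 14 in the late limited phase. Over all genes, the values above 0 were 55.98% in the middle limited, 53.17% in the exponential, 53.02% in the early and 55.22% in the late limited phase. The middle and late limited libraries were also deeper than the others. Without middle limited replicate 3, the share of the 7 weak members in the middle limited phase was 3 of 14. Of the 19 values of these 7 genes above 0 in all libraries, 5 were in that library.

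**Figure D4:**
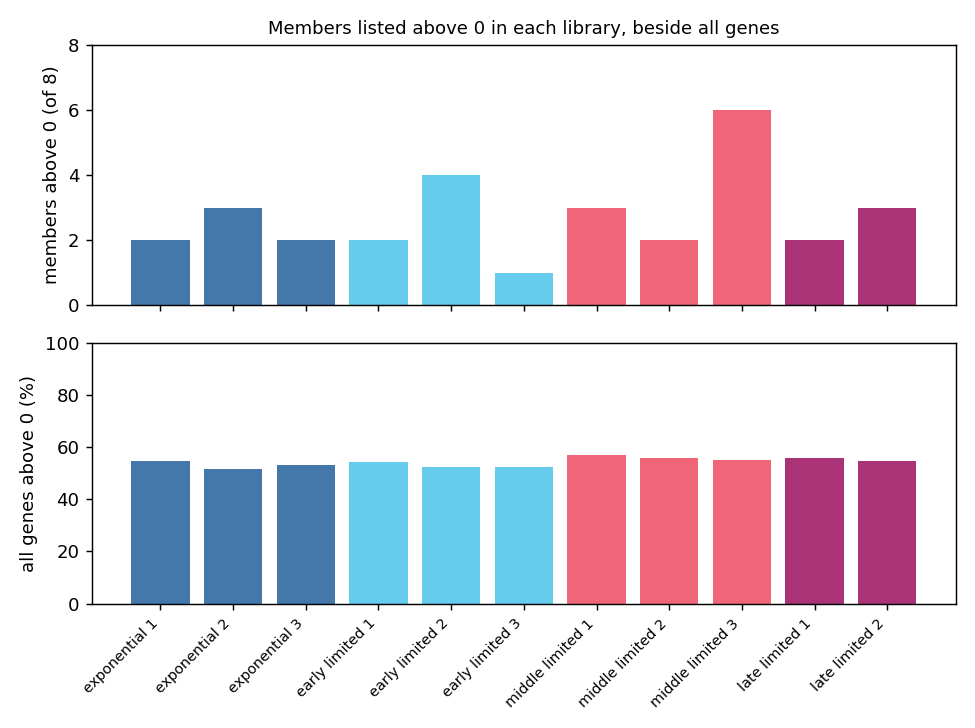
Number of the 8 members listed above 0 (upper bars) and percentage of all genes listed above 0 (lower bars) in each of the 11 libraries, coloured by phase. Middle limited replicate 3 has 6 members above 0 and the other libraries 1 to 4. The share of all genes lies between 51.69% and 57.05%.

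Of the 8 members, 6 passed the filter on low values and 2, xynB and axhA, did not. limma called 0 of the 6 in each of the 5 comparisons and 0 in the F test, with 0 at an unadjusted p under 0.05 in any of them. Of all genes tested, limma called 1.5% for early limited against exponential libraries, 6% for middle limited against exponential, 6.04% for late limited against exponential, 4.66% for middle against early limited and 0.426% for late against middle limited. With 6 genes tested at such shares, 0 calls does not set the members apart from other genes. Adjusted p-values of the F test by limma were 0.777 for eglA and abfB, 0.819 for cbhA, 0.836 for bgl1 and 0.632 for abfA. Fitted fold changes of these 5 genes are not given, since against groups at 0 they depend on the pseudocount.

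A list of 36 other loci of plant polysaccharide breakdown, pentose use and their regulation was set beside the members. It was compiled from general knowledge of the species, 21 of its loci were analysed here, and 7 of these carry a symbol in the gene table. Detection was sparse here too, as 11 of the 21 were above 0 in at most 3 libraries, with 1 of them at 0 in all. Of all genes, 35.17% were above 0 in at most 3 libraries and 3.18% were at 0 in all. xlnR (An15g05810), the gene of the activator of xylanase and cellulase genes, was listed at 5.93 FPKM in exponential replicate 3, 6.25 FPKM in early limited replicate 2, 17.82 FPKM in middle limited replicate 2 and 0 in the other 8 libraries. Middle limited replicate 3 was among the libraries with xlnR at 0, which at this depth need not mean absence. A link between xlnR and the members was not tested. creA (An02g03830), the gene of the carbon catabolite repressor, was above 0 in 6 of 11 libraries and at most at 49.44 FPKM. Neither was called between the phases (limma, Benjamini-Hochberg adjusted p of the F test 0.898 and 0.855). aglC and lacA+, for an α-galactosidase and a β-galactosidase, were above 0 in 3 and 2 libraries, and aglA and aceA in 1 each.

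aglB (An02g11150), for an α-galactosidase, which removes galactose side groups, was the only locus of the list with a symbol above 0 in every library. It ranged from 105.67 to 147.51 FPKM in the exponential, 57.6 to 150.46 in the early limited, 83.29 to 120.18 in the middle limited and 72.53 to 85.08 in the late limited libraries. The gene was not called (limma F test, Benjamini-Hochberg adjusted p = 0.777). At a mean of 104 FPKM it was close in level to eglB.

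Of the 16 list loci tested, limma called 0 for early limited against exponential libraries, 1 lower for middle limited and 1 lower for late limited against exponential. It called 1 higher and 1 lower for middle against early limited libraries, and 0 for late against middle limited. The shares of all genes called were 1.5%, 6%, 6.04%, 4.66% and 0.426%, in that order. At an unadjusted p under 0.05 by limma were 1, 5, 4, 5 and 3 of the 16 loci. Of all 8693 genes tested, 1037, 1576, 1628, 1481 and 570 were. No median is given for the list, because fitted values of loci at 0 depend on the pseudocount. The calls were 2 loci without a symbol, for which no role is given. An12g00030 was at 1513 ± 169 FPKM in the exponential, 1824 ± 27.6 in the early, 990.1 ± 91.3 in the middle and 786 ± 88.6 in the late limited phase, and fell by 0.94 in log2 from the exponential to the late limited phase (SE 0.15, Benjamini-Hochberg adjusted p = 0.00403 by limma). It also fell from the exponential to the middle limited phase (log2 fold change -0.61, adjusted p = 0.0215 by limma) and from the early to the middle limited phase (-0.89, adjusted p = 0.00415 by limma). An12g04610 rose from 594 ± 112 FPKM in the early to 1249 ± 120 in the middle limited phase (1.08 in log2, SE 0.17, Benjamini-Hochberg adjusted p = 0.00485 by limma). Without a trend in the variance limma called neither locus (adjusted p 0.247 to 0.465). The call of An12g00030 for middle limited against exponential libraries was also lost with libraries rescaled to the same FPKM sum (0.0608) and without exponential replicate 2 (0.0717) or middle limited replicate 1 (0.0699) or 2 (0.0599). That for late limited against exponential libraries was lost without late limited replicate 1 (0.0526). The 2 other named loci were not called in any comparison. An06g02040 was at 114.18 to 132.06 FPKM in the exponential, 81.38 to 113.9 in the early and 41.94 to 60.06 in the middle and late limited libraries (adjusted p of the limma F test 0.104). In the same order, An01g10920 was at 60.93 to 104.74, 92.97 to 132.91 and 9.81 to 42.7 FPKM (0.0642). The share of all genes with such a downward separation was not counted.

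**Figure D5:**
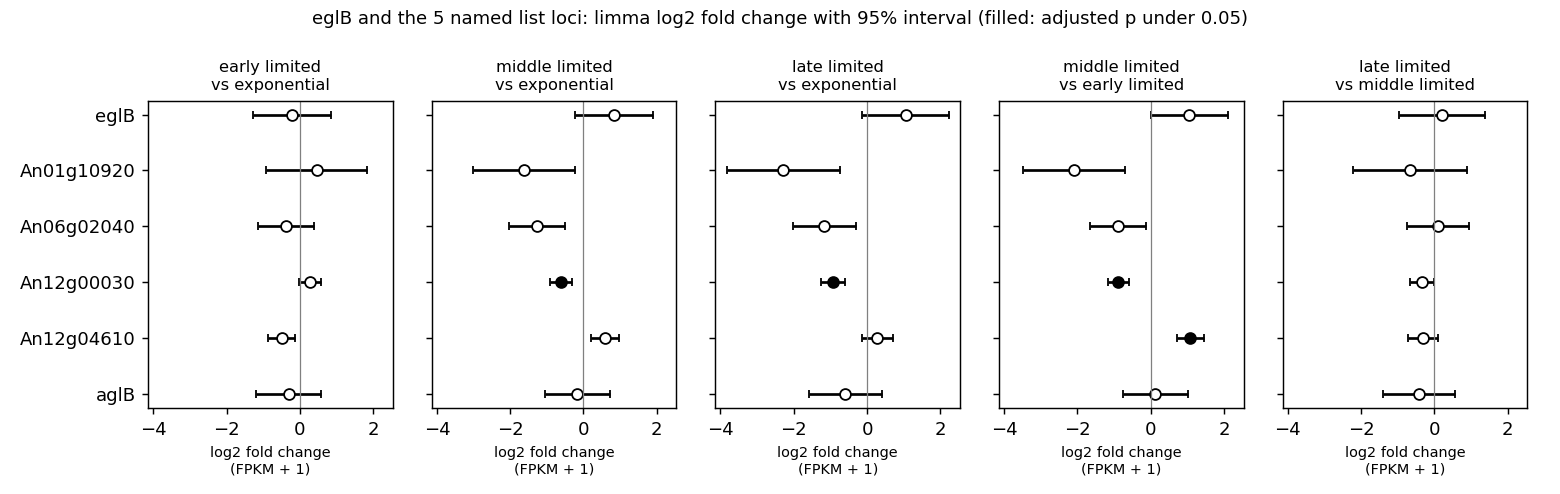
Log2 fold change of FPKM + 1 (x axis) with its 95% interval for eglB and the 5 named list loci (y axis) in the 5 comparisons, from limma. Filled points have an adjusted p under 0.05. The intervals of eglB reach from -1.27 to 2.23 and hold 0 in every comparison, and only An12g00030 and An12g04610 have filled points.

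The genes whose pattern over the 11 libraries was most like that of eglB were An04g08040, An09g00630 and An01g07640, with Pearson correlations of log2(FPKM + 1) of 0.937, 0.923 and 0.919 among 2932 genes whose mean reached 30 FPKM. The gene next in rank reached 0.907, so these 3 do not stand apart. Their phase means from exponential to late limited were 9.67, 13.0, 61.2 and 44.1 FPKM for An04g08040. They were 149, 259, 725 and 902 FPKM for An09g00630 and 25.7, 27.2, 167 and 165 FPKM for An01g07640. Each had, as eglB had, its 2 higher means in the middle and late limited phases, which follows largely from choosing genes by their likeness to eglB. The correlations are a description over libraries that share their phases and their depth, and none of the 3 loci carries a symbol.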

How the data were processed

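The authors deposited FPKM values for 10445 genes in 4 tables, 1 per phase, with the same genes in the same order. RSEM is named in the submitters' processing notes. For the version, aligner, build and annotation nothing is given in the sources used here, and no scaling between libraries is recorded. Symbols came from RefSeq assembly ASM285v2 (10417 identifiers matched, 28 did not), used for names only. The members, the list and the tests were chosen with earlier results of these data known.

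Relative depth was read from the most frequent ratio of low values between libraries. A gene's step was accepted when its low values lay within 0.06 of whole numbers of reads, widened in proportion above 5 reads, and was found for 87.8% of 8697 genes above 0 in at least 2 libraries. Read numbers are the smallest that meet this and cover counting error only.

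limma 3.58.1 (R 4.3.3) was run on log2(FPKM + 1) for genes reaching 1 FPKM in 2 or more libraries, in 1 fit of all 11 libraries with a mean per phase and a variance trend. Fold changes are on that scale. For low genes with values at 0 they depend on the pseudocount and can depart from the ratio of the phase means in either direction. Calls have a Benjamini-Hochberg adjusted p under 0.05 over all 8693 genes. The fit was tested on simulated data. All members were named, as were list loci that were called or among the 5 highest by mean, and regulators and other loci with a symbol were added after their values were seen. Other tools were Python 3.11.15, pandas 2.3.3, numpy 2.4.6 and matplotlib 3.10.9.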

Additional observations from a re-analysis of the deposited data

How the results depend on the processing

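The count of members called stayed at 0 in all 119 values over 20 alternative settings, 11 of which left out 1 library each (0 to 0 in every comparison). The other 9 were a pseudocount of 0.1 or 10, no filter, a filter at an FPKM of 10, no trend in the variance, rescaling to the same FPKM sum, median-of-ratios scaling, the replicate block and only the libraries of the compared groups. With the replicate number as a block, 0 members were called in each comparison and the adjusted p of the eglB F test by limma was 0.407. Deviations of same-numbered libraries correlated at -0.071 to 0.054 and those of differently numbered libraries at -0.059 to 0.059. Counting error at this depth could hide a shared culture, so these correlations do not decide whether the numbers mark pairs. The labels do not state pairs, and the main fit assumed none. The adjusted p of the eglB F test ranged from 0.188 to 0.48, and the other 5 tested members stayed at 0.232 or higher. The log2 fold change of eglB kept its direction in all settings for 4 comparisons, at 0.58 to 1.01 for middle limited and 0.79 to 1.23 for late limited against exponential, 0.49 to 1.40 for middle against early limited and 0.07 to 0.38 for late against middle limited. That for early limited against exponential was -0.57 to 0.34 and reversed without early limited replicate 3 (0.34). Among list loci not called, limma passed An01g10920 in the F test with a pseudocount of 10 (adjusted p = 0.0334) and without middle limited replicate 2 (0.0398), and An06g02040 without a filter (0.016). Depth limits the values of eglA, cbhA, bgl1, abfA and abfB, none of which rests on more than 3 reads in a library. The count of 0 members called is therefore in effect a check of eglB. Some settings also left members untested, as the filter at an FPKM of 10 did for bgl1 and abfA.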

Other observations

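Genes for the breakdown of pectin, another plant cell wall polysaccharide, were looked at by symbol after the symbols and the values were seen, and are given as values with no test. The polygalacturonase gene pgaC (An05g02440) was above 0 in all 11 libraries, at 49.01 to 68.96 FPKM in the exponential, 14.85 to 29.06 in the early limited, 21.47 to 83.16 in the middle limited and 39.46 to 46.72 in the late limited libraries. The rhamnogalacturonan hydrolase gene rhgA (An12g00950) was above 0 in 10 libraries with a median of 36.8 FPKM, and rhgB (An14g04200) in 7 with a median of 7.29 FPKM. The polygalacturonase genes pgaB (An02g04900) and pgaI (An01g11520) were above 0 in 2 and 1 libraries, at no more than 14.2 and 14.41 FPKM. Some of these genes were listed in nearly every library and others in very few. The same holds over all genes, of which 21.57% were above 0 in all 11 libraries and 35.17% in at most 3.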
